A study of Sus scrofa with 13 samples.

Results

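HIGD1B, RGS5, PDGFRB and MCAM are genes whose transcripts mark pericytes, the contractile cells that wrap the capillaries of the heart. They were followed in heart muscle of 13 pigs after an experimental infarction. Of 6 listed pericyte genes, 4 were represented by 6 probe sets that the platform annotation names, among 6765 genes named in the same way on the array. ABCC9 and CSPG4 are not analysed here. The list was built around HIGD1B, which was chosen by its adjusted p in the comparison of the groups with 1 saline array left out. The differences between the groups are therefore given for all members as descriptions, with no test, and the only p printed for one is the value that chose HIGD1B.

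The animals were female miniswine of the Sinclair breed, aged 3 months and weighing about 10 kg, whose infarct came from permanent ligation of diagonal branches of the LAD, the coronary artery that runs down the front of the heart. The stem cell group (7 animals) received 50000000 cells that the labels call MPCs, as 10000000 at each of 5 border zone sites, in 2 ml saline. The saline group (6 animals) received 2 ml saline in 5 injections. Both groups carried the same ligation, and all arrays come from drill biopsies at month 4, so no uninfarcted heart and no earlier time enters here. The position of a biopsy with respect to the infarct is not given. Each animal gave 1 Affymetrix porcine array, a chip on which a probe set, a group of short DNA probes, reads 1 transcript as a brightness. Deposited intensities are on a linear scale, and group means are of their log2 values.

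Pericytes sit in the basement membrane of capillaries, where endothelial cells recruit and hold them by secreting PDGF-B, the ligand of the receptor PDGFRB. They narrow or relax the vessel through G protein coupled receptors and through potassium channels that sense ATP. In the heart they are among the most numerous non-muscle cells. HIGD1B encodes a small mitochondrial membrane protein of the hypoxia inducible gene domain family, and in mouse and human single cell data its transcript is a marker of pericytes. RGS5 speeds the switching off of G proteins and is abundant in pericytes and arterial smooth muscle. MCAM, also called CD146, is an adhesion molecule of pericytes and smooth muscle that endothelial cells make too.

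The median intensity lay between 13.5 and 14 on each array, and the correlation between 2 arrays over the probe sets tested lay between 0.936 and 0.986. The first principal component carried 24.7% of the variance, with stem cell animal 6 at one end and saline animals 5 and 6 at the other. Cardiomyocyte markers were present, as the label heart muscle requires: the mean log2 level of 14 of them was 13.46 ± 0.108 in the stem cell group and 13.54 ± 0.136 in the saline group (SD, n = 7 and 6). With 14399 probe sets tested, those whose mean log2 level over all arrays lay above 3.36 (an intensity of 10.3), limma called 0 (0%) at an adjusted p under 0.05 in either direction. At an unadjusted p under 0.05 there were 1519, of which 742 were lower and 777 higher in the stem cell group.

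HIGD1B, read by 1 probe set, was a dim signal that held a narrow band in the stem cell group. Its intensity had a lowest value of 11.1, a median of 12.6 and a highest value of 13.4 in the stem cell group, against a lowest of 7.98, a median of 19.55 and a highest of 23 in the saline group. All 7 stem cell values lay near the filter, an intensity of 10.3, and below the lowest array median, 13.5. The narrow band is thus limited by signal over background, and its reading as steady expression was not tested. Of the saline animals, 1, 2, 3, 4 and 6 lay between 18.8 and 23, above all 7 stem cell animals, and saline animal 5 lay at 7.98, below all of them. The groups thus overlapped through 1 animal. The mean log2 level was 3.63 ± 0.088 in the stem cell group and 4.13 ± 0.56 in the saline group (SD, n = 7 and 6), a difference of −0.49 ± 0.195 (SE). Of the probe sets tested, 7.97% had a difference larger in size. The value of saline animal 5 lay below the intensity of the filter, 10.3, but above 5.97, which no mean of the 17 tag controls, probe sets without a pig target, exceeded. In bulk tissue, fewer cells of a type and less of a transcript per cell cannot be told apart.

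**Figure D1:**
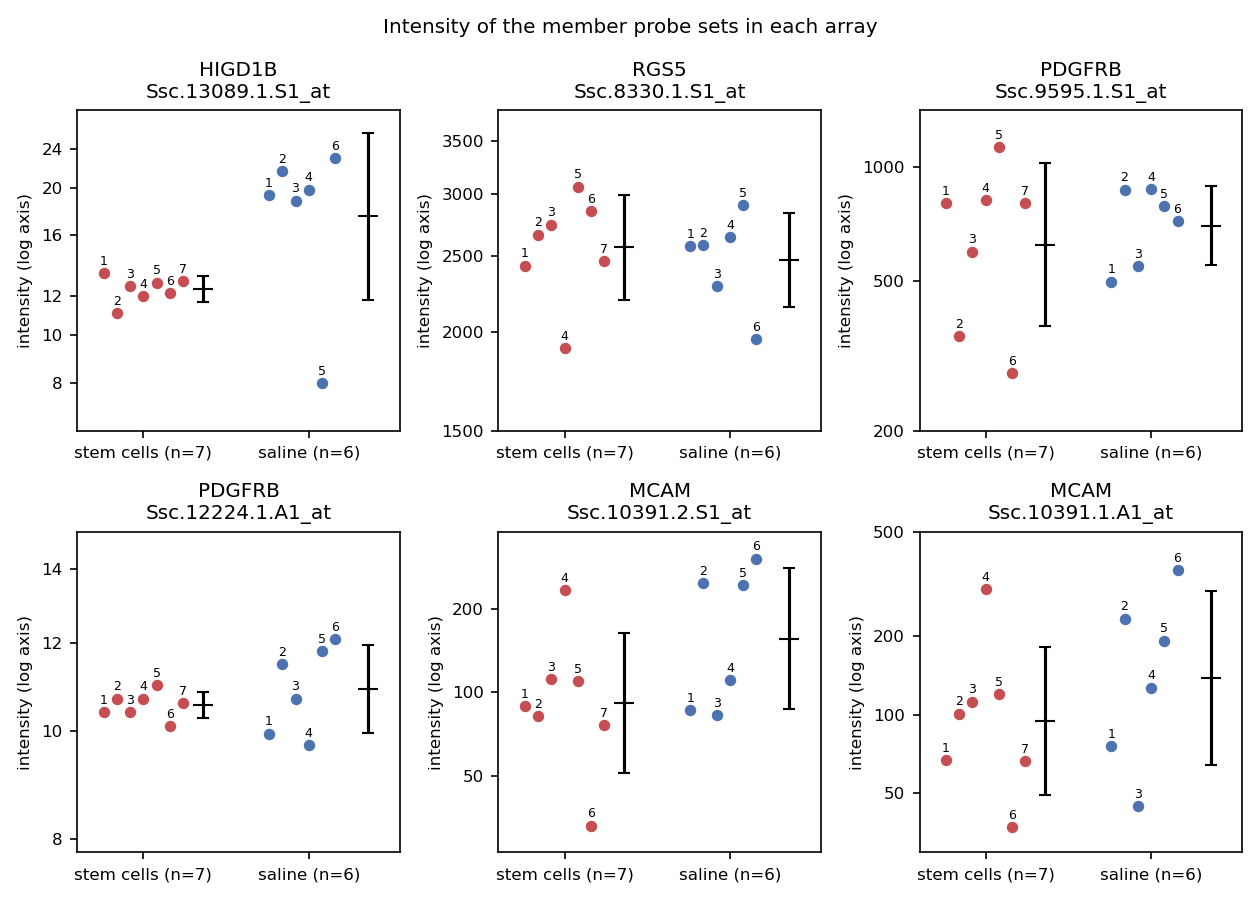
Intensity (log axis) of each member probe set, titled by gene and identifier, in every array, with stem cell animals left in red and saline animals right in blue, numbered by animal; black bars show the mean of the log2 values and its SD. HIGD1B runs between 11.1 and 13.4 in the stem cell group and between 18.8 and 23 in 5 saline animals, with saline animal 5 at 7.98.

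RGS5, also read by 1 probe set, was bright and steady. Its intensity ran between 1910 and 3060 with a median of 2660 in the stem cell group, against 1960 to 2900 with a median of 2575 in the saline group. The ranges lay almost on top of each other, and the highest and lowest arrays differed 1.60-fold. The mean log2 level was 11.32 ± 0.22 in the stem cell group and 11.27 ± 0.197 in the saline group (SD, n = 7 and 6), a difference of 0.052 ± 0.126 (SE). Leaving out saline animal 6, the lowest saline value, turned the difference to −0.0146. Saline animal 5, lowest of all arrays for HIGD1B, had the highest RGS5 intensity of its group, 2900.

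PDGFRB is the receptor through which endothelial PDGF-B holds pericytes to the vessel. It had a pair of probe sets, and the leading one, with the higher mean, had intensities of 284 to 1130 with a median of 801 in the stem cell group, against 497 to 873 with a median of 753 in the saline group. Stem cell animals 6 and 2, at 284 and 357, lay below every saline animal, while stem cell animal 5, at 1130, lay above every one. The mean log2 level was 9.28 ± 0.72 in the stem cell group and 9.45 ± 0.348 in the saline group (SD, n = 7 and 6), and the difference of −0.17 ± 0.291 (SE) was smaller than the SD of either group. Without stem cell animal 6 it turned to 0.0201. The other probe set lay near the filter, at 10.1 to 11 with a median of 10.6 in the stem cell group and 9.72 to 12.1 with a median of 11.1 in the saline group. Its log2 means were 3.40 ± 0.039 in the stem cell group and 3.45 ± 0.132 in the saline group (SD, n = 7 and 6), a difference of −0.050 ± 0.071 (SE), and only 0.403% of the probe sets tested had a smaller spread within groups. The PDGFRB probe sets followed each other weakly over the 13 arrays, with a Pearson r of 0.333 and a Spearman rho of 0.199.

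MCAM varied most among the members. Of its pair of probe sets, the leading one had intensities of 33 to 234 with a median of 89.4 in the stem cell group, against 82.7 to 305 with a median of 177.5 in the saline group. In the stem cell group animal 4 stood high at 234 and animal 6 low at 33, and in the saline group animals 2, 5 and 6 lay at 244 or above while 1, 3 and 4 lay at 111 or below. The mean log2 level was 6.51 ± 0.84 in the stem cell group and 7.29 ± 0.85 in the saline group (SD, n = 7 and 6). The difference of −0.78 ± 0.416 (SE) was larger in size than that of HIGD1B, with 6 of the 7 animals given cells under the saline mean, but each group overlapped the other. Of the probe sets tested, 1.72% had a larger difference and 96.0% had a smaller spread within groups.

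The other MCAM probe set ran at 37.2 to 301 with a median of 101 in the stem cell group and at 44.7 to 357 with a median of 159.5 in the saline group. Its log2 means were 6.56 ± 0.94 in the stem cell group and 7.11 ± 1.10 in the saline group (SD, n = 7 and 6), and the difference was −0.54 ± 0.495 (SE). Both MCAM probe sets ranked the animals alike, with a Pearson r of 0.939 and a Spearman rho of 0.918 over the 13 arrays. With 1 animal left out at a time, the difference was −0.53 or lower in every repeat for the leading probe set and ran between −0.87 and −0.27 for the second.

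The HIGD1B value that chose the list comes from the fit without saline animal 5. Without saline animal 5 the mean log2 level was 3.63 in the stem cell group and 4.35 ± 0.12 in the saline group (SD of the saline group, n = 5), a difference of −0.72 ± 0.0917 (SE), and all 7 stem cell animals lay below the lowest saline animal. The stem cell mean lay near the filter level of 3.36, so the small SE is limited by signal over background. In that fit limma gave HIGD1B an adjusted p of 0.0222, the value by which it was chosen. It was the 1 probe set of 14399 past the threshold, 0.00694%, and nothing is read from that count. The next probe set in order was that of ELOF1, a transcription elongation factor, with a difference of −0.71 ± 0.132 (SE) and an adjusted p of 0.409 in limma. INHA, an inhibin subunit, PPP1R14A, an inhibitor of myosin phosphatase in smooth muscle, and HRC, a calcium binding protein of the muscle reticulum, had the same adjusted p of 0.409 in limma. PPP1R14A had a log2 mean of 3.18 in the stem cell group, below the filter level of 3.36. Every stem cell array lay below every one of the 5 saline arrays for 50 probe sets, 0.347% of those tested, and over all 13 arrays the count was 23, 0.16%.

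With any other animal left out, the HIGD1B difference ran up to −0.41, without saline animal 6. Among the other members, leaving out saline animal 5 gave 0.098 ± 0.131 for RGS5, −0.13 ± 0.316 for the leading PDGFRB probe set and −0.65 ± 0.440 for the leading MCAM probe set (SE). Each of these moved by less than its SE.

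**Figure D2:**
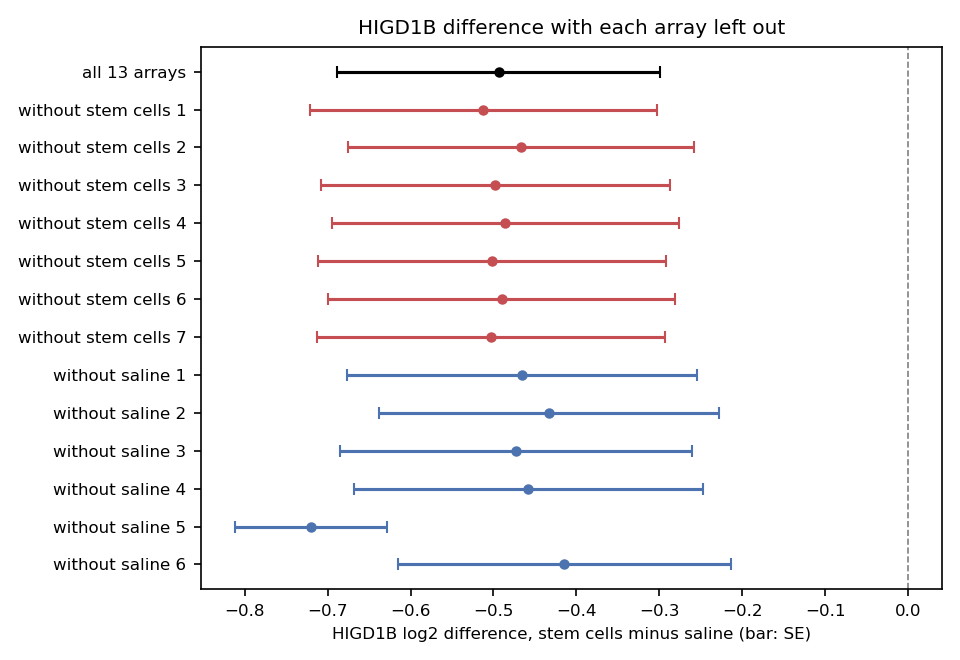
HIGD1B log2 difference, stem cells minus saline, with its SE as bars, for all 13 arrays (black) and with each stem cell animal (red) or saline animal (blue) left out. The differences run between −0.72 without saline animal 5 and −0.41 without saline animal 6, and the SE is narrowest, 0.0917, without saline animal 5.

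Saline animal 5 was also placed by the means of the pericyte and vessel lists, with the genes unscaled. Ranked from the lowest of 13 arrays, its mean level was 13 of 13 for the endothelial markers and for the RGS family. It was 12 of 13 for the other pericyte markers, the vascular tone genes and the genes of the HIG family and hypoxia response. For the pericyte recruitment signals it was 11 of 13, for smooth muscle markers 10 of 13 and for the vascular basement membrane genes 8 of 13. On the first principal component it lay at 40.2, beside saline animal 6 at 44.4, and stem cell animal 6 lay at −62.4. What part of the HIGD1B value of this animal goes with these was not tested.

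Covariation was measured on what the group means leave. The low value of saline animal 5 stays in it, and since HIGD1B was chosen by a fit without that animal, its weight in every HIGD1B value comes with the choice. Each gene was represented by its probe set with the highest mean, and 6 gene pairs were computed by a two-sided permutation test within groups. HIGD1B and RGS5 had a Pearson r of −0.394 (permutation p = 0.211, adjusted p = 0.422) and a Spearman rho of −0.286 over the 13 arrays. Without saline animals 5 and 6, the farthest from the HIGD1B median, r was 0.158, and without saline animal 5 alone it was −0.18. Of the probe sets tested, 90.9% had an r to HIGD1B at least as high as that of RGS5.

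HIGD1B and PDGFRB had an r of 0.0415 (permutation p = 0.89, adjusted p = 0.938) and a rho of 0.115. The same pair had an r of 0.639 without saline animals 5 and 6, with an adjusted p of 0.275 by the permutation test, and 0.542 without saline animal 5 alone. HIGD1B and MCAM had an r of −0.126 (permutation p = 0.938, adjusted p = 0.938) and a rho of −0.0165, and 0.474 without saline animal 5. In no setting run did a pair with HIGD1B pass.

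PDGFRB and MCAM had the highest r of the 6 pairs, 0.628 (permutation p = 0.0223, adjusted p = 0.134), with a rho of 0.5. The pair had an r of 0.67 within the stem cell arrays and 0.644 within the saline arrays, and 0.42 without stem cell animals 2 and 6, the farthest from the PDGFRB median. Stem cell animal 6 was lowest for both. Of the probe sets tested, 4.85% had an r to PDGFRB at least as high. RGS5 had an r of −0.0974 to PDGFRB (permutation p = 0.783, adjusted p = 0.938) with a rho of −0.0824, and −0.422 to MCAM (permutation p = 0.168, adjusted p = 0.422) with a rho of −0.192. Without saline animal 6 and stem cell animal 4, the lowest for RGS5, these were 0.116 and 0.295. None of the 6 pairs passed at an adjusted p under 0.05.

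**Figure D3:**
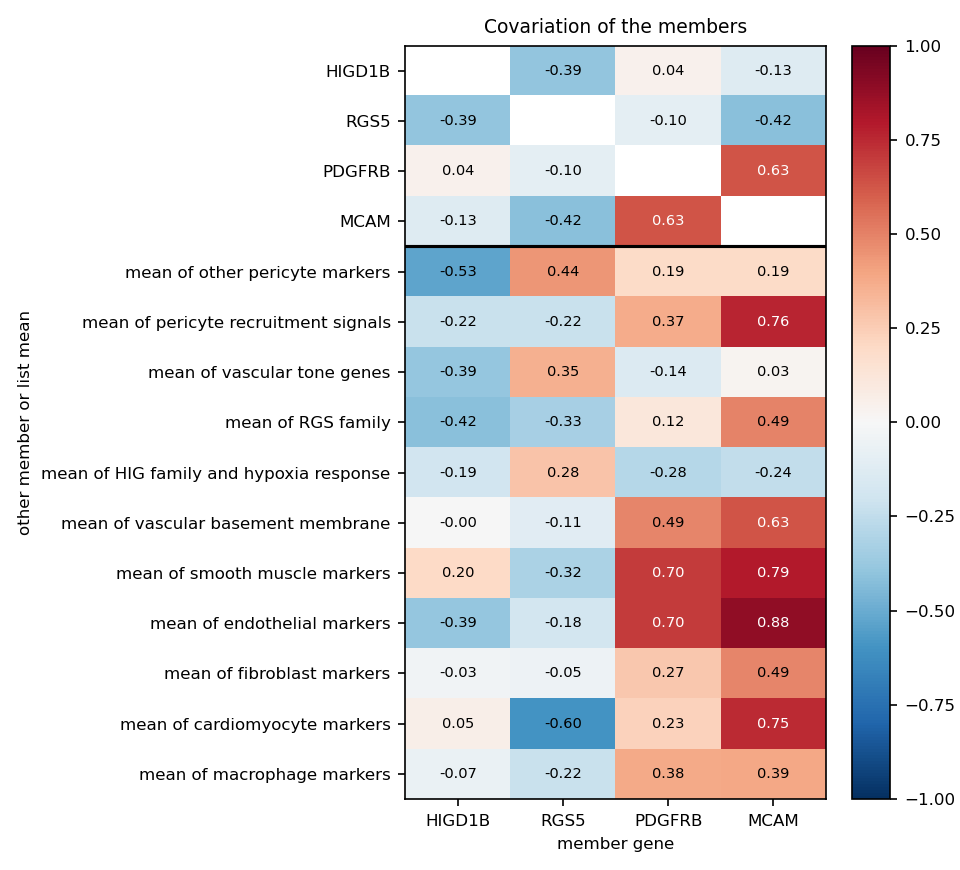
Pearson r over the 13 arrays with group means removed, between the 4 member genes (upper block) and between each member and the mean of each gene list (lower block), on a scale between −1 and 1. MCAM has the highest value, 0.88 with the endothelial marker mean, and the highest value in the HIGD1B column is 0.20; the cardiomyocyte row rests on NPPA and NPPB, without which MCAM has −0.297.

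Over all 13 arrays and with list genes unscaled, MCAM had its highest r to the means of the endothelial and smooth muscle markers. No such relation passed with the other pericyte markers, the pericyte recruitment signals or the vascular tone genes. Each member was also set against the means of 11 gene lists, 44 relations in all. MCAM had an r of 0.884 to the mean of 13 endothelial markers (permutation p = 0.00018, adjusted p = 0.00792) with a rho of 0.835, and an r of 0.79 to the mean of 13 smooth muscle markers (permutation p = 0.00137, adjusted p = 0.0301) with a rho of 0.808. Its r to the mean of 14 cardiomyocyte markers was 0.75 (permutation p = 0.00335, adjusted p = 0.0491), with a rho of 0.736 that did not pass (adjusted p = 0.0972 by permutation). That mean was carried by NPPA and NPPB, the natriuretic peptides: without them r was −0.297 (adjusted p = 0.617 by permutation). MCAM had an r of 0.194 to the mean of the 8 other pericyte markers (adjusted p = 0.725, permutation) and 0.0287 to that of the vascular tone genes (adjusted p = 0.951, permutation). To the mean of the pericyte recruitment signals, which share TEK and ENG with the endothelial markers, its r was 0.76 (adjusted p = 0.0861, permutation). To that of the vascular basement membrane genes it was 0.632 (adjusted p = 0.176, permutation). Among the other probe sets tested, 0.0626% had an r to the endothelial mean at least as high, 0.674% one to the smooth muscle mean and 0.813% one to the cardiomyocyte mean.

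With each list gene scaled to the same spread before averaging, the endothelial r was 0.831 (adjusted p = 0.0722 by permutation) and the smooth muscle r 0.598 (adjusted p = 0.366 by permutation), so neither passed. With that scaling the r of MCAM to the pericyte recruitment signals was 0.767 (adjusted p = 0.159 by permutation), above the smooth muscle value. Without stem cell animals 4 and 6, the farthest from the MCAM median, r was 0.826, 0.624 and 0.624 to the endothelial, smooth muscle and cardiomyocyte means, and none passed after adjustment over 44 relations with fewer arrays. To the mean of the pericyte recruitment signals it was 0.679 in that setting, again above the smooth muscle value. With 1 animal left out at a time, the endothelial relation passed in 12 of 13 repeats, all but the one without stem cell animal 6 (r = 0.857, adjusted p = 0.115 by permutation). The smooth muscle relation passed in 7, and not without stem cell animal 1, 3, 4 or 6 or saline animal 3 or 4. The cardiomyocyte relation passed in 3, those without stem cell animal 5 or saline animal 1 or 2. To the first principal component MCAM had an r of 0.719 (adjusted p = 0.0637 over 8 relations, permutation test). PDGFRB had an r of 0.698 to that component, with the same adjusted p by permutation, so neither passed. What part of the covariation goes with that component was not tested.

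**Figure D4:**
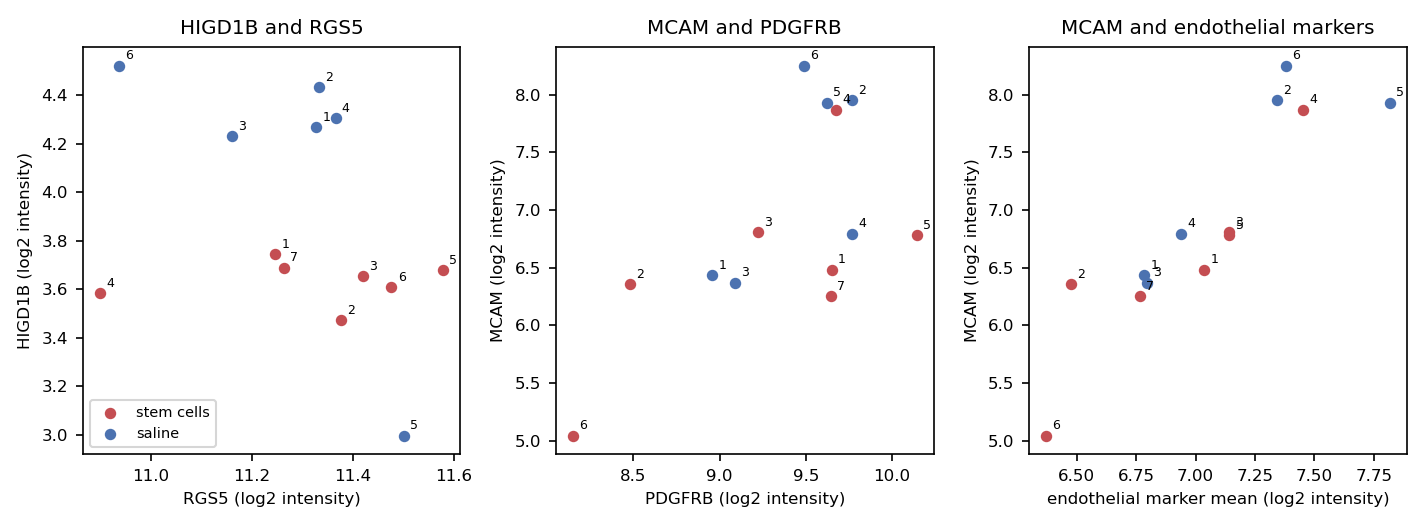
Log2 intensity of HIGD1B against RGS5, of MCAM against PDGFRB and of MCAM against the mean of 13 endothelial markers, with stem cell animals in red and saline animals in blue, numbered by animal. Stem cell animal 6 is lowest in both panels with MCAM, and saline animal 5 stands apart in the panel of HIGD1B.

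No other member passed with a list. PDGFRB had an r of 0.697 to the endothelial mean (adjusted p = 0.0861, permutation) and 0.696 to the smooth muscle mean (adjusted p = 0.114, permutation). Its r to the mean of the 8 other pericyte markers was 0.191 (adjusted p = 0.669, permutation). RGS5 had an r of −0.597 to the cardiomyocyte mean (adjusted p = 0.188, permutation), which was 0.137 without saline animal 6 and stem cell animal 4 and 0.365 without NPPA and NPPB, and 0.441 to that pericyte mean (adjusted p = 0.403, permutation). HIGD1B had an r of −0.525 to the pericyte mean (adjusted p = 0.642, permutation), which was 0.407 without saline animals 5 and 6. With each list gene scaled to the same spread, the r of HIGD1B to that mean was −0.195.

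The genes whose pattern was most like HIGD1B over the 13 arrays, group means removed, were LOC106504299 (r = 0.876), CCDC71 (0.844), NUTF2 (0.833), PPOX (0.827), MED17 (0.812), AAR2 (0.796), DHRS1 (0.786) and CNOT8 (0.785). None is on the pericyte lists. Without saline animal 5 these were 0.406, 0.389, 0.148, 0.476, −0.0995, −0.0561, 0.699 and 0.184 in the same order, so DHRS1 alone stayed above 0.5. The genes most like RGS5 were SKAP2 (r = 0.813), ATP1B4 (0.808), PHF11 (0.795), LOC100153150 (0.772), PRKACB (0.766), MGEA5 (0.752), LOC100519098 (0.735) and PYGM (0.713). Without saline animal 5 these lay between 0.698 and 0.842. PRKACB is a catalytic subunit of protein kinase A and PYGM the glycogen phosphorylase of muscle.

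Of 30 other pericyte markers listed, 8 were tested, with 4 lower and 4 higher in the stem cell group, 0 past the threshold in limma, and a median log2 difference of −0.25, beside 0.017 and 47.2% lower over all probe sets tested. The list mean was 5.86 ± 0.06 in the stem cell group and 6.01 ± 0.314 in the saline group (SD, n = 7 and 6). GJA4, a gap junction protein of vessel walls, differed by −0.50 ± 0.18 (SE), VTN, or vitronectin, by −0.51 ± 0.25, EDNRA, a receptor for endothelin, by 0.58 ± 0.37 and ENPEP, an angiotensin-cleaving peptidase, by 0.37 ± 0.36. KCNJ8, the pore of the ATP-sensitive potassium channel of pericytes, had log2 means of 9.99 ± 0.35 in the stem cell group and 9.91 ± 0.167 in the saline group (SD, n = 7 and 6).

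Of the signals that recruit and hold pericytes, 15 of 29 listed genes were tested, 7 lower and 8 higher, 0 past the threshold in limma, with a median of 0.0061. PDGFB is not analysed here. ENG, an endothelial co-receptor for TGF-beta, differed by −0.65 ± 0.29 (SE), TEK, the receptor of the angiopoietins, by 0.38 ± 0.17, JAG1, a Notch ligand, by 0.32 ± 0.15, and HBEGF, a growth factor that binds heparin, by −0.63 ± 0.38. TEK and ENG also count among the endothelial markers, and EDNRA also among pericyte markers and vascular tone genes.

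Of the vascular tone genes, 11 of 30 were tested, 6 lower and 5 higher, 0 past the threshold in limma, with a median of −0.035. PPP1R12A, the targeting subunit of myosin phosphatase, differed by 0.31 ± 0.14 (SE), AGTR1, the angiotensin receptor, by −0.27 ± 0.19 and RHOA, a small GTPase of contraction, by −0.16 ± 0.14. Of the family of RGS5, 7 of 18 genes were tested, 4 lower and 3 higher, 0 past the threshold in limma, with a median of −0.32. RGS1 differed by −0.89 ± 0.49 (SE), RGS2 by −0.81 ± 0.44, RGS4 by −0.40 ± 0.27 and RGS10 by −0.32 ± 0.23, all turning off G proteins as RGS5 does. RGS4 was dim, with a log2 mean of 3.60 in the saline group and of 3.20, below the filter level of 3.36, in the stem cell group.

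Genes of the HIG family and of the hypoxia response were tested in 15 of 27 cases, 9 lower and 6 higher, 0 past the threshold in limma, with a median of −0.083. HIGD2A, a family member that helps assemble respiratory chain complexes, had a log2 mean of 9.90 ± 0.57 in the stem cell group and 10.59 ± 0.178 in the saline group (SD, n = 7 and 6), a difference of −0.69 ± 0.23 (SE). HIGD1A, another relative of HIGD1B, had 12.47 ± 0.25 in the stem cell group and 12.45 ± 0.146 in the saline group (SD, n = 7 and 6). NDUFA4, a cytochrome oxidase subunit, differed by −0.14 ± 0.073 (SE), VEGFA, the vessel growth factor, by 0.21 ± 0.13 and CA9, a carbonic anhydrase induced by hypoxia, by −0.16 ± 0.10. Of the vascular basement membrane genes 12 of 23 were tested, 7 lower and 5 higher, 0 past the threshold in limma, with a median of −0.070. COL6A2, a collagen chain, differed by −0.39 ± 0.25 (SE), COL4A2, another, by −0.44 ± 0.39 and LAMB2, a laminin chain, by −0.20 ± 0.16.

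**Figure D5:**
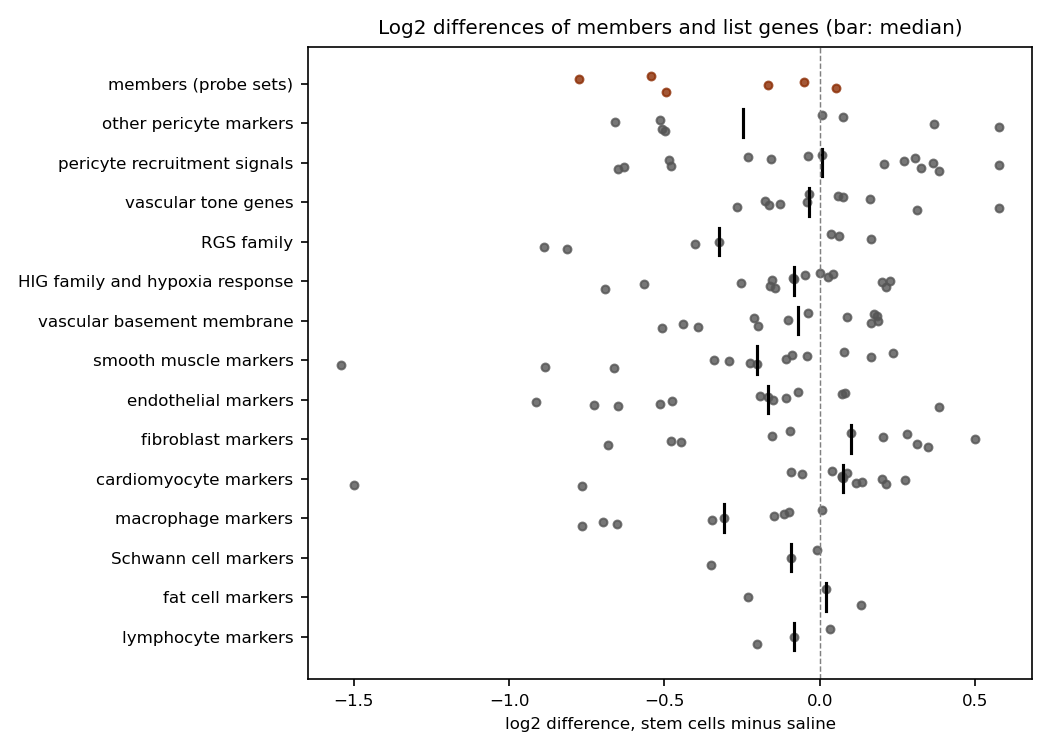
Log2 differences, stem cells minus saline, of the 6 member probe sets (top row) and of each tested gene in the pathway and cell type lists, with bars at list medians and a dashed line at 0. Member differences run between −0.78 and 0.052, inside the spread of the other lists.

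Markers of the other cell types in the biopsy moved as follows, and their part in the member values was not tested. Over all probe sets tested, 47.2% were lower in the stem cell group, and the counts below were not tested against that share. Smooth muscle markers were lower in 10 of 13, with a median of −0.20 and list means of 8.14 ± 0.33 in the stem cell group and 8.44 ± 0.28 in the saline group (SD, n = 7 and 6). MYL9, a light chain of smooth muscle myosin, differed by −0.88 ± 0.21 (SE) and PPP1R14A by −0.66 ± 0.13, both with an adjusted p of 0.393 in limma. PPP1R14A was dim, with a log2 mean of 3.84 in the saline group. Its mean of 3.18 in the stem cell group lay below the filter level of 3.36, so it was tested only through its saline values. Endothelial markers were lower in 10 of 13, with a median of −0.17 and list means of 6.91 ± 0.39 in the stem cell group and 7.18 ± 0.41 in the saline group (SD, n = 7 and 6).

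Macrophage markers were lower in 8 of 9, with a median of −0.31. TYROBP, an adaptor of myeloid receptors, differed by −0.76 ± 0.29 (SE) and AIF1 by −0.65 ± 0.29. Fibroblast markers were lower in 5 of 11, with a median of 0.099. COL3A1, a collagen, differed by 0.35 ± 0.12 (SE) and SERPINF1 by −0.68 ± 0.41. The COL3A1 probe set was dim, with a log2 mean of 3.83 in the stem cell group and 3.48 in the saline group. Both lay near the filter level of 3.36, so its difference is limited by signal over background. Cardiomyocyte markers were lower in 4 of 14, with a median of 0.073. NPPA and NPPB, the natriuretic peptides, differed by −0.77 ± 0.38 and −1.50 ± 0.76 (SE). Schwann cell, fat cell and lymphocyte lists had 3 tested genes each. Their named genes were S100B (−0.35 ± 0.34), SOX10 (−0.094 ± 0.11), FABP4 (−0.23 ± 0.36), LPL (0.13 ± 0.12), PTPRC (−0.20 ± 0.18) and CD2 (−0.084 ± 0.13). In limma 0 of the genes in any of these lists passed the threshold.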

How the data were processed

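RNA from drill biopsies of 13 pigs was read on Affymetrix porcine arrays, 1 per animal. The deposited values are intensities on a linear scale that the authors made with GCRMA, per the submitters' processing notes; neither its version nor its settings are named there. Since the arrays were normalized against each other, these values cannot show a shift common to most genes. The deposited intensities were put on the log2 scale. Of 24123 probe sets, 124 controls were left out, and of the other 23999, 10069 had 1 gene symbol in the platform annotation, 198 several and 13732 none. The 14399 probe sets with a mean log2 level above the 40th percentile were tested with limma 3.58.1 in R 4.3.3 (lmFit, eBayes with trend, Benjamini-Hochberg adjustment, threshold 0.05), after a check on simulated data. The median SE was 0.18. The number of arrays limits the precision.

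Covariation used Pearson r and Spearman rho with group means removed and 100000 permutations within groups, two-sided. Named were all members, up to 4 genes of a pathway list and 2 of a cell type list by moderated t, relatives of HIGD1B and RGS5, KCNJ8, PDGFB, and the 8 genes most like HIGD1B and RGS5. A gene stands for its brightest probe set. Members and lists were chosen with earlier results of these data known. P-values measure the spread between animals. Alternatives were other filters, normalizations, variance models, array weights, a floor, a tissue covariate, a replicate block and left-out animals; those for member and list means were chosen after seeing the data.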

Additional observations from a re-analysis of the deposited data

Results flagged for a closer look

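The HIGD1B intensity of saline animal 5 was 7.98, while the other 5 saline animals lay between 18.8 and 23. Its gap to the nearest of them was 0.81 of the range of the group on the log2 scale. HIGD1B was chosen because it passed with this animal left out, so that the animal stands apart comes with the choice and is a description, with no test. Over the probe sets tested, 7.74% had a saline animal past Dixon's limit, which chance passes in about 5% of groups. Saline animal 5 was the low one in 106 (0.736%) and the high one in 110. These counts are of animals past the limit, and the share with a gap as large as that of HIGD1B was not computed.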

How the results depend on the processing

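The count of probe sets past the threshold was 0 under every alternative run except without saline animal 5, where it was 1, and ran between 0 and 1 with single animals left out. The HIGD1B difference kept its sign in every alternative that gave a value, a description only, since HIGD1B was chosen on this contrast. Leaving out the filter or changing the variance model cannot alter the difference itself. A filter at the 60th percentile dropped HIGD1B and the other PDGFRB probe set. Array weights gave 0.063 for the leading PDGFRB probe set, −0.45 for the leading MCAM probe set and −0.22 for the other; the cause was not tested. No pair of members passed under any alternative. MCAM and the cardiomyocyte mean gave a rho of 0.736, which did not pass, and r turned to −0.297 without NPPA and NPPB and to −0.159 with each list gene scaled to the same spread. That scaling gave 0.831 for the endothelial and 0.598 for the smooth muscle mean, neither of which passed. Without the 2 animals farthest from the MCAM median r was 0.826 for the endothelial, 0.624 for the smooth muscle and 0.624 for the cardiomyocyte mean, with fewer arrays. With single animals left out, r ran between 0.854 and 0.924, between 0.713 and 0.840, and between 0.671 and 0.829 for these lists.

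The labels do not say whether the replicate numbers pair animals. Deviations of same-numbered animals correlated between −0.266 and 0.237, which cannot decide it, since a pairing need not leave a trace in expression. With the replicate block HIGD1B differed by −0.50 and 0 probe sets passed. For the pairs, r was then taken over the 6 differences between same-numbered animals, without stem cell animal 7. It is thus not the r over 13 arrays given elsewhere, and with so few values it is imprecise. No pair passed: this r was 0.683 for PDGFRB and MCAM, 0.653 for HIGD1B and PDGFRB, −0.0641 for HIGD1B and RGS5 and −0.761 for RGS5 and MCAM. Small differences near the filter level are limited by signal over background.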
